A study of Mus musculus with 20 samples.

Results

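The genes described here are 34 genes of cell proliferation, read from the liver of female mice treated with corticosterone (CORT), an adrenal steroid, and with an antibody against acyl-CoA-binding protein (ACBP). A gene belonged to the set if its symbol in the liver count table was on a list of 34 symbols, and all 34 were found among the 48440 genes of the table. The animals were wild-type mice, 8 weeks old, given as C57BL/6 in the labels and as C57BL/6J in the study's methods, and each of the 20 livers came from a separate mouse. The Isotype + Vehicle group (5 mice) received an IgG2a control antibody and no CORT, and the Isotype + CORT group (5 mice) received the control antibody with CORT. The αACBP + Vehicle group (5 mice) received a monoclonal anti-ACBP antibody without CORT, and the αACBP + CORT group (5 mice) received both. Treatment ended after 5 weeks, so that all values come from a single time point and all mice carried either the control antibody or the anti-ACBP antibody. The comparisons asked whether CORT changed these transcripts, whether the anti-ACBP antibody changed them, and whether the 2 treatments depended on each other.

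A dividing cell copies its DNA and then separates the copies, and most of the genes that do this work are transcribed mainly while the cell cycles. The E2F factors switch on the replication genes before DNA synthesis, and a complex that includes FOXM1 switches on the mitotic genes later. Most hepatocytes of an adult liver rest outside the cycle and re-enter it after injury or loss of tissue, and the immune cells and other non-parenchymal cells of the liver can divide as well. In bulk liver RNA, fewer cells of a type and less RNA per cell cannot be told apart.

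The set covers 4 roles. The 12 replication genes were Mcm2, Mcm3, Mcm4, Mcm5, Mcm6 and Mcm7, which encode the ring of the replicative helicase, Cdc6, which helps to load it, Cdc45, which helps to activate it, Pcna, the sliding clamp of the DNA polymerases, and Rrm1, Rrm2 and Tyms, which make DNA precursors. The 8 cyclins, Cdk1 and transcription factors were Ccne1 and Ccne2, cyclins of the entry into DNA synthesis, Ccna2, Ccnb1 and Ccnb2, cyclins of later phases, Cdk1, the kinase of mitotic entry, and E2f1 and Foxm1. The 6 mitotic kinases and checkpoint genes were Aurka, Aurkb, Plk1, Bub1, Bub1b and Cdc20, the last of which activates the anaphase-promoting complex. The 8 spindle and chromosome proteins were Mki67, the Ki-67 antigen used to mark cycling cells, Top2a, a DNA topoisomerase, Birc5 (survivin), Cenpe, a kinetochore motor, Kif11, a spindle motor, Tpx2, Nusap1 and Prc1.

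Total counts per liver ranged from 14934926 to 20299999. Levels are given in CPM, counts scaled to a common library size after normalization by the trimmed mean of M values, and 3 counts corresponded to at most 0.205 CPM in any liver. This floor covers counting error only, since read pairs and not molecules were counted. The 10 hepatocyte markers, such as Alb and Apoa1, together reached between 47300 and 158000 CPM in a liver. In 3 livers, Isotype + CORT 1 and 2 and αACBP + Vehicle 5, between 10.7% and 14.9% of the 5292 genes with a mean of 1 to 10 CPM had no count, against 0.0567% to 6.82% in the other 17 livers.

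The promoters of this set are shown because many of them, though not all, carry short sequences known from cell cycle genes. The windows run from 250 bases before to 50 bases after each start site (RefSeq, GRCm38.p6), and 28 of the 34 members had one, with 30 windows in all. Searched on both strands were the cell cycle homology region (CHR, TTTGAA), the CCAAT box, and 4 forms of the E2F site (TTTGGCGC, TTTCGCGC, TTTCCCGC and TTTGGCGG), which may overlap each other. CHR was found in 43.3% of the members' windows and in 17.9% of all 32851 windows, CCAAT in 80% and 37.4%, both together in 43.3% and 6.95%, and an E2F form in 20% and 2.37%. Of 3 members described in detail below, Mki67 (chr7:135716330-135716629, minus strand) and Kif11 (chr19:37376132-37376431, plus strand) carried CHR and CCAAT but no E2F form, and Mcm6 (chr1:128359656-128359955, minus strand) carried E2F forms and CCAAT but no CHR. The sequences are written along the gene with all matches, on either strand, in capitals. A match is a description of the letters in the window and not a measured binding site.
Mki67: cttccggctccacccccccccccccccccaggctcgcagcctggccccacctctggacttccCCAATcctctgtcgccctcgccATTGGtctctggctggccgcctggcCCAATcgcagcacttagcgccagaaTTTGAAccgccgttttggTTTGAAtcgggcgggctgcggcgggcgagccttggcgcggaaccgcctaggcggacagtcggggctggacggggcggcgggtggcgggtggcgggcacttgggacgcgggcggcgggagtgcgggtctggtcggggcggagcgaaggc
Kif11: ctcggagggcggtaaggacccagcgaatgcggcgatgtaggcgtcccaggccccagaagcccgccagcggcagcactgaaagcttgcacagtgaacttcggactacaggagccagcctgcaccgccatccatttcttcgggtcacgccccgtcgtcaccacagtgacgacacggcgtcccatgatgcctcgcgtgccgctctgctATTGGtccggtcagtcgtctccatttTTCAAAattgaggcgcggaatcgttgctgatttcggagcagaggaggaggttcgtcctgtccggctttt
Mcm6: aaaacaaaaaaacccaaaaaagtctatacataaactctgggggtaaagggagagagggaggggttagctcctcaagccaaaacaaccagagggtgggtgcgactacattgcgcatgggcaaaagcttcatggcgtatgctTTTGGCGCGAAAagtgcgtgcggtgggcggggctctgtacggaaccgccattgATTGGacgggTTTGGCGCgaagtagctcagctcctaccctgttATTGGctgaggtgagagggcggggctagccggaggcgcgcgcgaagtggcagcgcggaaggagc
Like Mcm6, Cdc6, Mcm3, Mcm5 and the upstream window of Mcm7 held E2F forms without CHR. Top2a, Ccnb2, Cdc20, Plk1, Aurka, Bub1b, Prc1, Cdc45 and Mcm2 held CHR without an E2F form, and Cdk1 held both. The windows of Ccne1, Tyms, Birc5, E2f1 and Nusap1 held no match to any of the sequences searched, and nothing outside these windows was searched.

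The members were transcripts of low level. Divided by exon length (GENCODE M39), the highest mean over the 20 livers was that of Pcna at 6.5 ± 2.31 CPM per kb (SD), followed by Mcm7 at 4.06 ± 0.731 and Ccna2 at 2.63 ± 0.918 CPM per kb. Ccne2 stood at 1.7 ± 0.625 CPM per kb and Tyms at 0.999 ± 0.32 CPM per kb, and the SD ranges of neighbours in this order overlapped. The lowest were Bub1 at 0.072 ± 0.148 and Ccnb1 at 0.0583 ± 0.094 CPM per kb. Without division by length, 28 of the 34 members had a mean under 5 CPM. The median member stood at the 22.2 percentile of the genes tested. The coefficient of variation over all livers ran from 0.18 for Mcm7 to 1.28 for Kif11 and 2.05 for Bub1.

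Part of the exons of several members is shared with genes on the other strand, and the strand setting of the counting is not given in the sources used here, so that reads there may belong to either gene. The paper's methods state that non-unique features were included in the counting, so that such reads may also have been counted for each gene. The share of exon bases was 43.3% for Rrm2, 38.6% for Aurka, 20.8% for Pcna, 17.5% for Ccna2 (with Exosc9), 16.1% for Cdc45, 15.2% for Ccne2 (with Ints8), 12.3% for Mcm7 (with Ap4m1 and Cops6), 11.8% for Prc1 (with Rccd1) and 7.85% for Foxm1. The 4 members with the highest levels per kb are among these. Ccnb1 shared 9.57% of its words of 100 bases with pseudogene copies and other predicted genes, and its low counts are uncertain for that reason too.

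Many members had no count in single livers. Only 9 of the 34 members were counted in all 20 livers, namely Ccna2, Ccne2, E2f1, Mcm3, Mcm6, Mcm7, Pcna, Rrm1 and Tyms. In the Isotype + Vehicle group 1, 2, 1, 6 and 1 members had no count in livers 1 to 5. In the Isotype + CORT group the numbers were 16, 17, 2, 10 and 5. They were 4, 2, 6, 3 and 9 in the αACBP + Vehicle group and 2, 4, 4, 4 and 3 in the αACBP + CORT group. The Isotype + CORT group thus held the 3 livers with the most members at 0, and its ranges overlapped those of all other groups. Livers 1 and 2 of that group shared 14 members without a count, among them Mki67, Kif11, Cenpe, Bub1b, Foxm1 and Mcm5, and 9 of these 14 were counted in both of livers 3 and 5. In each of livers 1 and 2, 7 of the 8 spindle and chromosome proteins were at 0. These are also the livers of that group in which the most genes of low level in general had no count, and the part of this in the members' values was not tested. Of the 32 members that entered the tests below, liver 3 of the same group had 28 above their median over the 20 livers. The same number was found in liver 2 of the Isotype + Vehicle group. The members' summed level lay between 102 and 166 CPM in the Isotype + Vehicle group, between 87.4 and 176 CPM in the Isotype + CORT group, between 94.1 and 139 CPM in the αACBP + Vehicle group and between 104 and 132 CPM in the αACBP + CORT group, and these ranges overlapped throughout.

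**Figure D1:**
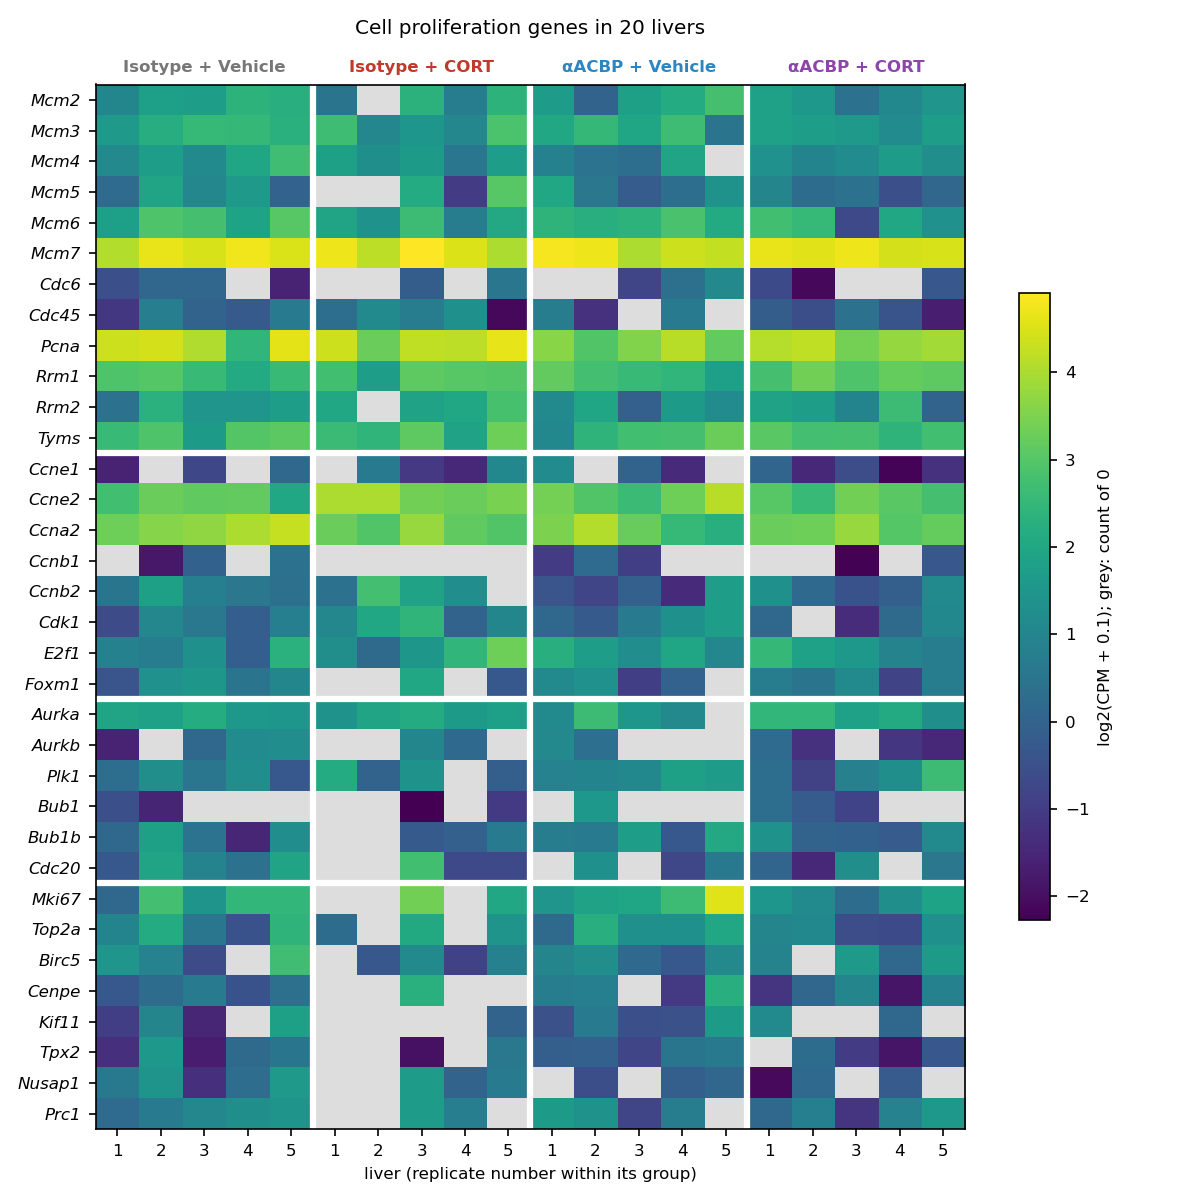
Level of the 34 members (rows, grouped by role) in each of the 20 livers (columns, grouped by treatment), as log2(CPM + 0.1), with a count of 0 in grey. Grey cells are most frequent in livers 1, 2 and 4 of the Isotype + CORT group, with 16, 17 and 10 members at 0, while Mcm7, Pcna and Ccna2 were counted in every liver.

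**Figure D2:**
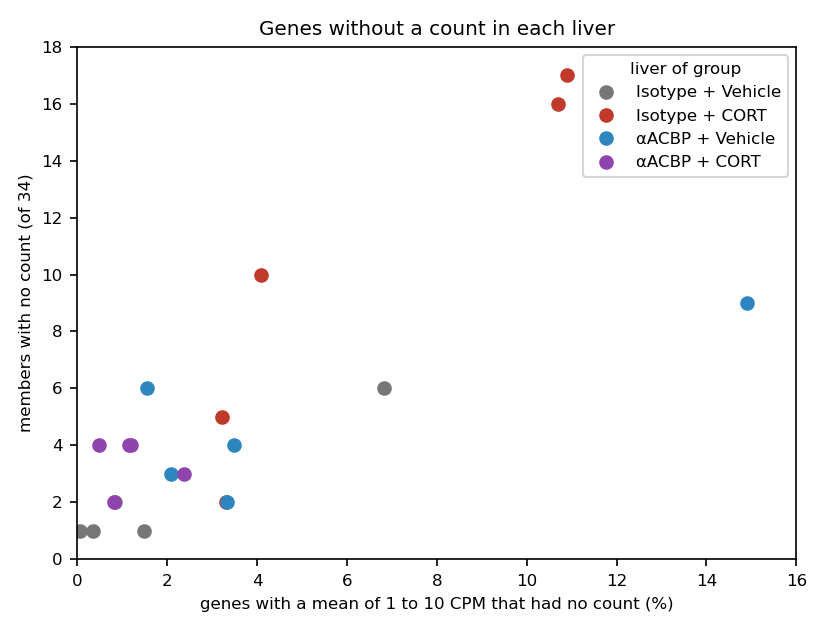
Each point is a liver, coloured by group, with the percentage of genes of low level (a mean of 1 to 10 CPM) that had no count on the x axis and the number of the 34 members without a count on the y axis. Livers 1 and 2 of the Isotype + CORT group lie at 10.7% and 10.9% with 16 and 17 members, and αACBP + Vehicle 5 lies at 14.9% with 9 members.

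Of the 34 members, 32 passed edgeR's filter on low counts, and Ccnb1 and Bub1 did not. They were tested among 16071 genes with edgeR's quasi-likelihood test, and calls needed a p of at most 0.05 after Benjamini-Hochberg adjustment over all of them and a log2 fold change of 1 or more in size. Ccnb1 was listed at 0 in all 5 Isotype + CORT livers, at up to 1.26 CPM in the Isotype + Vehicle group, at up to 1.07 CPM in the αACBP + Vehicle group and at up to 0.702 CPM in the αACBP + CORT group, where 2, 2 and 3 livers respectively were at 0. Bub1 had no count in 12 of the 20 livers, and its highest value was 2.84 CPM in 1 liver of the αACBP + Vehicle group.

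With CORT under the control antibody, no member was called. Mcm7, Pcna, Rrm1 and Tyms lay near their vehicle levels, the 8 spindle and chromosome proteins all had a log2 fold change below 0 that did not pass the test, and Ccne2 alone had groups that did not overlap. In edgeR, 0 of 32 members were called, where 1.94% of all genes tested were called, and 1 member (Ccne2) had an unadjusted p of 0.05 or less, where 15.6% of all genes did. DESeq2's Wald test called 0 members with 1 at that unadjusted p (16.9% of all genes), and limma's voom with a weight for each liver called 0 members with 8 (18.3% of all genes). The members' median log2 fold change was -0.30, with 13 higher and 19 lower, beside a median of 0.0022 over all genes. The values ran from -2.70 (Kif11) to 1.23 (Ccne1). The smallest adjusted p was 0.184 (edgeR, Ccne2).

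The replication genes had a median log2 fold change of 0.016, with 7 of 12 higher and 5 lower. Mcm7 was at 22.7 ± 3.96 CPM without CORT and 22.7 ± 5.74 CPM with it (SD, n = 5 each). Its log2 fold change of 0.00 had a 95% interval of -0.40 to 0.40, which leaves out a change of 1 log2 unit either way. Pcna was at 17.6 ± 7.43 and 18.3 ± 5.6 CPM (SD, n = 5 each), with an interval of -0.56 to 0.67. The intervals of Rrm1 and Tyms also lay within -1 and 1. For the other 28 members tested the interval reached beyond 1 log2 unit on at least 1 side, and the median standard error was 0.88, so that a change of this size lies inside the interval at this depth and spread.

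Mcm6, a subunit of the helicase, was at 3.31, 7.46, 6.75, 3.63 and 8.09 CPM in Isotype + Vehicle livers 1 to 5. It was at 3.69, 2.5, 6.19, 1.56 and 4.06 CPM in the Isotype + CORT livers. It was lower in the second group in the mean, at 3.6 ± 1.75 against 5.85 ± 2.22 CPM (SD, n = 5 each), but the groups overlapped. Its log2 fold change was -0.70 (standard error 0.47, edgeR adjusted p = 0.537). In the αACBP + Vehicle livers Mcm6 was at 5.13, 4.6, 5.06, 7.1 and 4.2 CPM, and in the αACBP + CORT livers at 6.51, 5.66, 0.516, 4.02 and 2.48 CPM. Liver 3 of the latter group had the lowest value of all livers, and the groups overlapped.

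Mcm5, another helicase subunit, was at 1.08, 3.67, 1.98, 2.88 and 0.898 CPM in the Isotype + Vehicle livers. In the Isotype + CORT livers it was at 0, 0, 4.27, 0.391 and 8.11 CPM. Livers 1 and 2 had no count while liver 5 had the highest value of all 20, so that the second group lay on both sides of the first. The αACBP + Vehicle livers were at 3.91, 1.39, 0.784, 1.16 and 2.56 CPM and the αACBP + CORT livers at 1.88, 1.09, 1.26, 0.591 and 0.972 CPM. The log2 fold change with CORT under isotype was 0.28 (standard error 0.95, edgeR adjusted p = 0.944), and without Isotype + CORT liver 5 it was -0.84.

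Ccne2, the cyclin E2 gene, had the smallest p of all members. It was at 6.56, 9.54, 8.82, 8.88 and 3.89 CPM in the Isotype + Vehicle livers. With CORT it was at 16.1, 16.2, 10.2, 9.58 and 10.8 CPM. Every Isotype + CORT liver lay above every Isotype + Vehicle liver, with a gap from 9.54 to 9.58 CPM, and the 2 highest values were those of livers 1 and 2. Such a separation was found for 1 of 32 members and for 5.04% of all genes. The means were 7.54 ± 2.33 and 12.6 ± 3.31 CPM (SD, n = 5 each), and the log2 fold change was 0.74 (standard error 0.29, edgeR adjusted p = 0.184), which missed both limits. Over the alternatives other than leaving out single livers, the adjusted p lay between 0.161 and 0.525 and the log2 fold change between 0.43 and 0.74. Ints8, whose exons overlap those of Ccne2 on the other strand, had a log2 fold change of 0.26 (standard error 0.22, edgeR adjusted p = 0.667), and its part in the value of Ccne2 was not tested.

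The other cyclins and their partners did not share a direction. Among the 7 tested of this role, 5 were higher and 2 lower, from Foxm1 at -0.97 to Ccne1 at 1.23 on the log2 scale. Cdk1 had a log2 fold change of 1.13 (standard error 0.81, edgeR adjusted p = 0.58), and its partner cyclin Ccna2 one of -0.57 (standard error 0.29, edgeR adjusted p = 0.361). Foxm1 and Cdk1, a regulator and a member of the mitotic programme, thus had values of opposite sign, neither of which passed the test.

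The mitotic kinases and checkpoint genes had a median log2 fold change of -0.55, with 1 of 5 higher and 4 lower. Bub1b, the checkpoint gene that encodes BubR1, was at 1.02, 3.42, 1.27, 0.25 and 2.28 CPM in the Isotype + Vehicle livers. The Isotype + CORT livers were at 0, 0, 0.747, 0.847 and 1.48 CPM. The 2 livers at 0 were livers 1 and 2, and the other 3 lay inside the vehicle range. Its log2 fold change was -1.42 (standard error 0.96, edgeR adjusted p = 0.542). The αACBP + Vehicle livers were at 1.62, 1.55, 3.2, 0.715 and 4.1 CPM and the αACBP + CORT livers at 2.55, 0.901, 0.861, 0.768 and 2.11 CPM, and both overlapped the other groups.

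The 8 spindle and chromosome proteins had a median log2 fold change of -0.89, from -2.70 (Kif11) to -0.10 (Cenpe), with standard errors of 0.90 to 1.59. Mki67 was at 1.02, 6.73, 2.59, 5.44 and 5.45 CPM in the Isotype + Vehicle livers. In the Isotype + CORT livers it was at 0, 0, 10.2, 0 and 3.99 CPM. Livers 1, 2 and 4 had no count of Mki67, while liver 3, with 192 counts, lay above every vehicle liver. The log2 fold change was -0.57 (standard error 1.11, edgeR adjusted p = 0.894), it was -2.09 without liver 3, and it was 0.17 without the 3 livers in which many genes of low level had no count. In the αACBP + Vehicle livers Mki67 was at 2.68, 3.53, 3.74, 6.11 and 23.5 CPM, with liver 5 far above the rest at 487 counts. The αACBP + CORT livers were at 2.75, 2.12, 1.09, 2.36 and 3.62 CPM, the narrowest of the 4 groups.

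Top2a, which untangles replicated DNA, was at 1.87, 4.34, 1.37, 0.626 and 5.15 CPM in the Isotype + Vehicle livers. With CORT under isotype it was at 1.09, 0, 4.11, 0 and 2.64 CPM. Livers 2 and 4 were at 0 and liver 3 was the highest, and the groups overlapped. With CORT the log2 fold change was -0.76 (standard error 0.90, edgeR adjusted p = 0.791), and leaving out 1 liver moved it to between -1.52 (without Isotype + CORT liver 3) and -0.39 (without Isotype + Vehicle liver 5). The αACBP + Vehicle livers were at 1.06, 4.6, 2.41, 2.42 and 4 CPM and the αACBP + CORT livers at 1.88, 1.99, 0.574, 0.532 and 2.43 CPM, so that all groups overlapped.

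Kif11, the motor that pushes the spindle poles apart, had the lowest fitted value. It was at 0.421, 1.9, 0.254, 0 and 3.41 CPM in the Isotype + Vehicle livers. The Isotype + CORT livers were at 0, 0, 0, 0 and 0.902 CPM. Only liver 5 of this group, with 14 counts, had Kif11 at all, and 1 vehicle liver had none either. The fitted log2 fold change of -2.70 (standard error 1.59, edgeR adjusted p = 0.448) rests on that liver, moved to between -7.39 and -1.84 when single livers were left out, and is not a bound. The αACBP + Vehicle livers were at 0.614, 1.55, 0.603, 0.605 and 3.04 CPM and the αACBP + CORT livers at 2.08, 0, 0, 1 and 0 CPM.

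**Figure D3:**
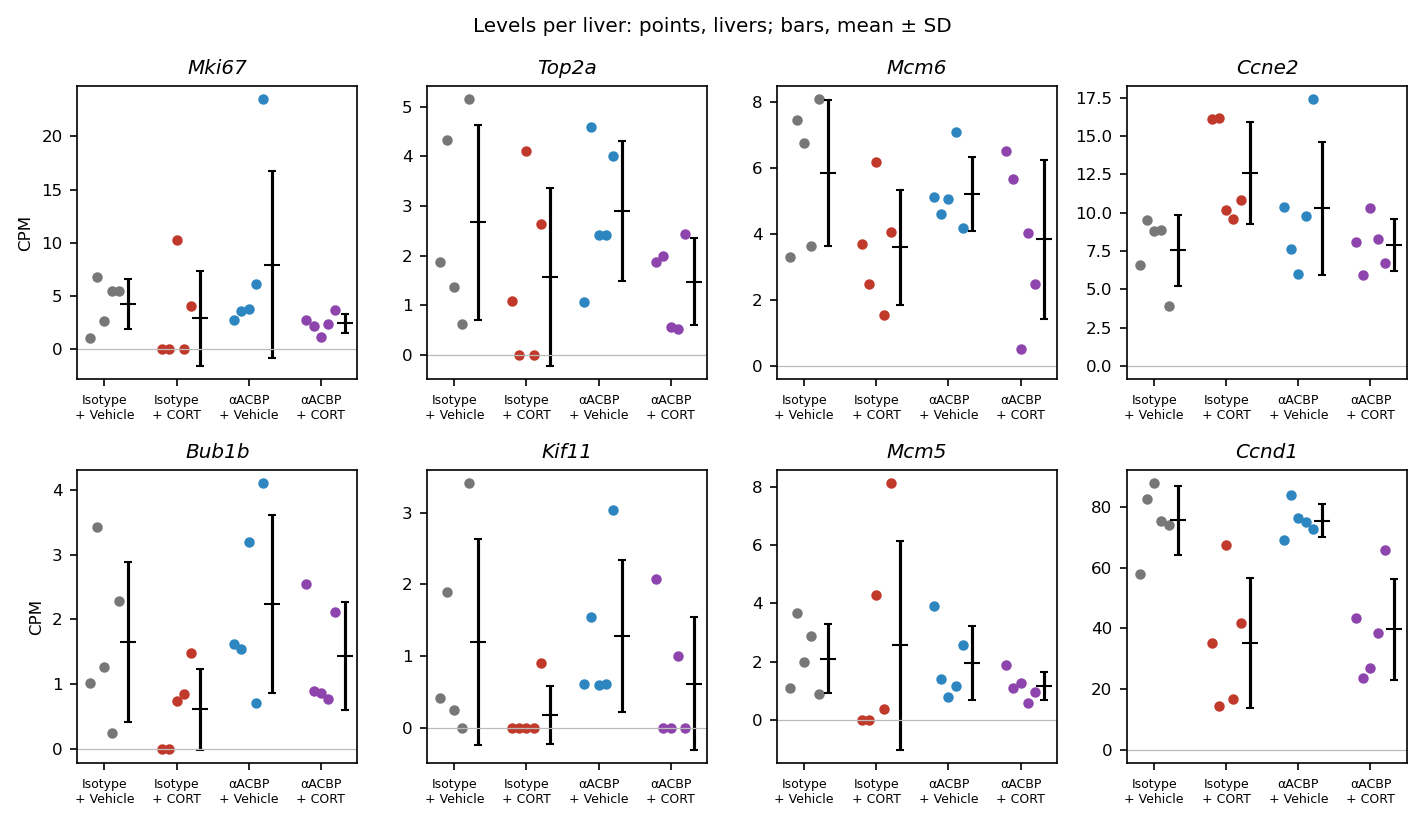
Level in CPM of the 7 members described liver by liver, and of Ccnd1, in the 4 groups of 5 livers, with points for livers and bars for mean ± SD. Ccne2 is the only member of these whose Isotype + CORT livers (9.58 to 16.2 CPM) all lie above its Isotype + Vehicle livers (3.89 to 9.54 CPM), and Mki67 has 3 Isotype + CORT livers at 0.

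**Figure D4:**
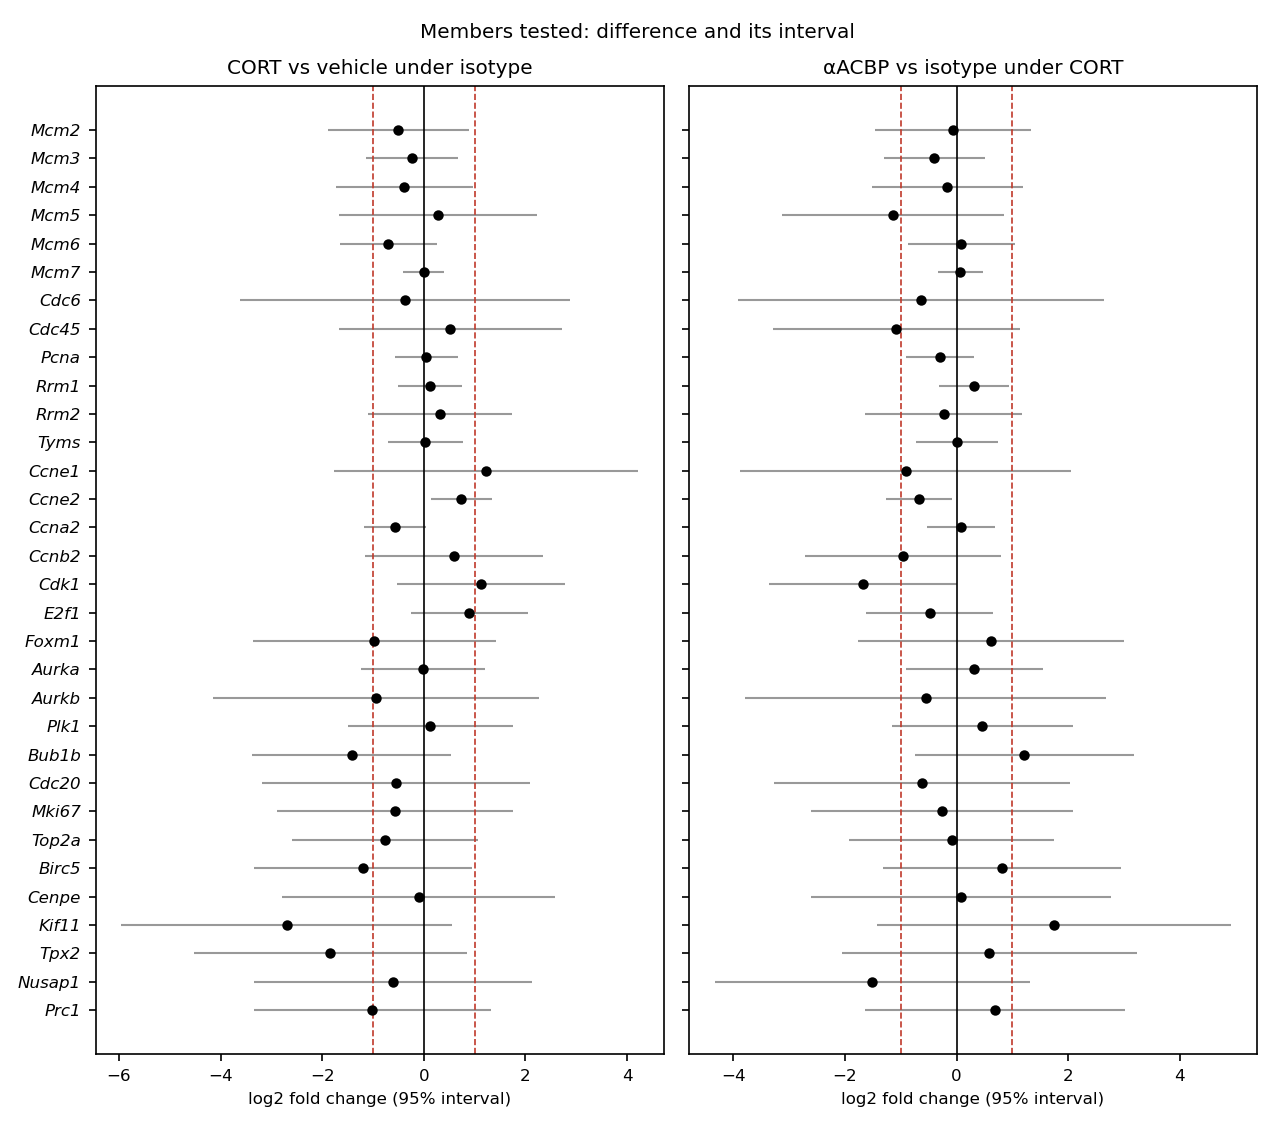
Log2 fold change of the 32 members tested (points) with its 95% interval (lines), for CORT under isotype on the left and for αACBP under CORT on the right, with dashed lines at -1 and 1. The interval lies within the dashed lines for 4 members on the left and 5 on the right, and 0 members were called in either.

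Leaving out livers moved the members' medians by less than 0.461, the SD between livers of the members' median level. Without Isotype + CORT liver 3 the members' median log2 fold change with CORT under isotype was -0.71 instead of -0.30, and that of αACBP under CORT was 0.32 instead of -0.13. Cenpe was then listed at 0 in all remaining Isotype + CORT livers, and it was the 1 member called of 33 tested in each of these comparisons in edgeR, beside 2.56% and 1.16% of all genes. Without Isotype + CORT livers 1 and 2 and αACBP + Vehicle liver 5, the medians were 0.0684 and -0.37, and 0 of 34 members tested were called in edgeR, beside 1.57% and 0.172% of all genes. At an unadjusted p of 0.05 or less were 2 and 1 members, beside 16.5% and 14% of all genes.

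With the antibody under CORT, no member was called either. This comparison shares the Isotype + CORT livers with the former, so that the values of livers 1, 2 and 3 enter both. In edgeR, 0 of 32 members were called against 0.597% of all genes, and 1 member had an unadjusted p of 0.05 or less against 12.5% of all genes. DESeq2's Wald test called 0 with 2 at that unadjusted p (13.9% of all genes), and voom called 0 with 3 (12.9% of all genes). The groups overlapped for all 32 members, while 3.22% of all genes had groups that did not. The median log2 fold change was -0.13, with 14 higher and 18 lower, beside 0.011 for all genes, and the values ran from -1.68 (Cdk1) to 1.75 (Kif11).

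Ccne2 was at 8.12, 5.92, 10.3, 8.27 and 6.75 CPM in the αACBP + CORT livers, against 9.58 to 16.2 CPM in the Isotype + CORT livers. Only liver 3 of the antibody group reached into the range of the other, and the antibody group overlapped the Isotype + Vehicle group. With the antibody the log2 fold change was -0.67 (standard error 0.29, edgeR adjusted p = 0.327), beside -0.34 (edgeR adjusted p = 0.59) for Ints8. In the αACBP + Vehicle livers Ccne2 was at 10.4, 7.65, 6.03, 9.79 and 17.4 CPM, with liver 5 the highest of all 20.

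Among the replication genes 4 were higher and 8 lower under the antibody, from Mcm5 at -1.14 (standard error 0.97, edgeR adjusted p = 0.74) to Rrm1 at 0.31 on the log2 scale. Without Isotype + CORT liver 5 the value of Mcm5 was -0.02. Mcm6 had a log2 fold change of 0.09 (standard error 0.47, edgeR adjusted p = 0.98). Mcm7, Pcna, Rrm1, Tyms and Ccna2 had 95% intervals within -1 and 1. Cdk1 was at 1.98, 3.95, 5.23, 0.912 and 1.93 CPM in the Isotype + CORT livers and at 1.01, 0, 0.287, 1.06 and 2 CPM in the αACBP + CORT livers. The 2 highest values were those of Isotype + CORT livers 3 and 2, and the groups overlapped, and the log2 fold change of -1.68 did not pass the test (standard error 0.82, edgeR adjusted p = 0.403).

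Of the spindle and chromosome proteins, 5 were higher and 3 lower under the antibody. Mki67 had a log2 fold change of -0.26 (standard error 1.11, edgeR adjusted p = 0.973), which became 1.26 without Isotype + CORT liver 3. Top2a was at -0.08 (standard error 0.90, edgeR adjusted p = 0.99) and 0.67 without that liver. Kif11 stood at 1.75 (standard error 1.55, edgeR adjusted p = 0.754), again a fitted value against a group with 4 livers at 0. It was 0.48 without αACBP + CORT liver 1 and 6.43 without Isotype + CORT liver 5. Bub1b, of the checkpoint genes, had a log2 fold change of 1.22 (standard error 0.95, edgeR adjusted p = 0.697).

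CORT under the anti-ACBP antibody, the antibody under vehicle, and both treatments against none gave 0 called members each in edgeR, in DESeq2's Wald test and in voom. All genes were called at 0.212%, 1.3% and 0.0684% respectively in edgeR. No member had an unadjusted p of 0.05 or less in edgeR or DESeq2 in these 3 comparisons, where 12.7%, 20.6% and 7.59% of all genes did in edgeR, and voom had 0, 4 and 4 members at that limit beside 17.8%, 27.1% and 17.8% of all genes. No member had groups without overlap, beside 2.74%, 7.13% and 3.31% of all genes.

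Under the anti-ACBP antibody, the members' median log2 fold change with CORT was -0.18, from -1.73 (Mki67) to 0.68 (Aurka). The Mki67 value had a standard error of 1.13 (edgeR adjusted p = 0.573) and drew on the 487 counts of αACBP + Vehicle liver 5. The smallest adjusted p was that of Rrm1, a subunit of ribonucleotide reductase (edgeR adjusted p = 0.54, log2 fold change 0.49). Under vehicle, the antibody gave a median of -0.14, from -1.80 (Nusap1) to 0.91 (Ccne1), with 10 of the 12 replication genes lower. Pcna, at 11.5 ± 3.7 CPM with the antibody and 17.6 ± 7.43 CPM without (SD, n = 5 each), had the smallest adjusted p of this comparison (edgeR adjusted p = 0.247, log2 fold change -0.61). With both treatments against none the median was -0.43, with 9 higher and 23 lower, from -2.11 (Nusap1) to 0.59 (Plk1). All 8 spindle and chromosome proteins again had values below 0, none of which passed the test, and the smallest adjusted p over the members was 0.803 (edgeR, Ccna2).

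Whether the response to CORT depended on the antibody was tested directly as an interaction. In edgeR 0 of 32 members passed, beside 0.143% of all genes, and 1 member, Ccne2, had an unadjusted p of 0.05 or less, beside 10.6% of all genes. DESeq2's Wald test called 0 with 2 at that limit (11.6% of all genes), and voom called 0 with 4 (14.8% of all genes). The interaction of Ccne2 was -1.12 on the log2 scale (standard error 0.41, edgeR adjusted p = 0.276), which joins a value of 0.74 under isotype with one of -0.38 under the antibody. That of its neighbour Ints8 was -0.70 (edgeR adjusted p = 0.394). The other members ran from -2.14 (Cdk1) to 1.65 (Kif11), with a median of 0.12 over all 32 and of 0.033 over all genes. Only Mcm7 had a 95% interval within -1 and 1.

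Other genes of the cell cycle were read from lists beside the set. Of 42 other replication genes tested, 1 was called higher with CORT under isotype, beside 1.94% of all genes called. This was Gmnn, the gene of geminin, which keeps DNA from being licensed for replication again. It was at 5.06, 4.34, 5.98, 4.07 and 6.17 CPM in the Isotype + Vehicle livers and at 7.31, 11.1, 16.1, 11.9 and 11.1 CPM in the Isotype + CORT livers. The groups did not overlap, and Gmnn rose by 1.16 on the log2 scale (standard error 0.30, edgeR adjusted p = 0.0285). Leaving out single livers gave adjusted p of 0.0214 to 0.0863 in edgeR, and the call was lost in 5 of 20 cases, namely without Isotype + Vehicle liver 1, 2 or 4 and without Isotype + CORT liver 3 or 4, where it was 1.16, 1.10, 1.09, 1.01 and 1.15 on the log2 scale. In the αACBP + Vehicle group Gmnn was at 6.18 ± 2.47 CPM and in the αACBP + CORT group at 6.72 ± 1.33 CPM (SD, n = 5 each), and the interaction of -1.04 did not pass the test (standard error 0.42, edgeR adjusted p = 0.329).

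Mcm10, which helps to start the replication fork, was called higher with the antibody under vehicle. It was the 1 gene called of the same 42, beside 1.3% of all genes called. It was at 18.8, 25.9, 28, 38.3 and 26.2 CPM in the Isotype + Vehicle livers and at 59.1, 37.6, 80.9, 38.7 and 82.6 CPM in the αACBP + Vehicle livers. The groups overlapped at 37.6 and 38.3 CPM. Mcm10 rose by 1.12 on the log2 scale (standard error 0.31, edgeR adjusted p = 0.0381). The call was lost in 8 of 20 cases with a liver left out, in which the log2 fold change stayed between 0.97 and 1.13. These were Isotype + Vehicle livers 1, 2, 3 and 5, αACBP + Vehicle livers 1, 3 and 5 and αACBP + CORT liver 4, with edgeR adjusted p over all 20 cases of 0.0144 to 0.12. With both treatments it was at 23.8 ± 13.5 CPM (SD, n = 5).

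None of 55 other genes of mitosis, 36 genes of cycle entry and arrest and 30 growth signals of hepatocytes was called by edgeR in any comparison. At an unadjusted p of 0.05 or less were 0 to 5, 4 to 7 and 1 to 8 of them. Depending on the comparison, 7.59% to 20.6% of all genes had such a p in edgeR, and 0.0684% to 1.94% were called. Ccnd1, the cyclin D1 gene that carries growth signals into the cycle, came nearest for CORT. It was at 57.8, 82.7, 87.7, 75.2 and 74 CPM in the Isotype + Vehicle livers and at 35.3, 14.6, 67.3, 16.9 and 41.9 CPM in the Isotype + CORT livers. Only liver 3 of the CORT group reached into the vehicle range. With CORT its log2 fold change was -1.10 (standard error 0.32, edgeR adjusted p = 0.0606). Under the anti-ACBP antibody Ccnd1 was at 69.1, 83.9, 76.2, 75 and 72.6 CPM with vehicle and at 43.3, 23.8, 27.1, 38.6 and 65.9 CPM with CORT. Every CORT liver of this pair lay below every vehicle liver, and the log2 fold change was -0.92 (standard error 0.32, edgeR adjusted p = 0.208). With CORT, the antibody groups differed by 0.17 on the log2 scale (standard error 0.32, edgeR adjusted p = 0.917).

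Cdkn1a, the gene of the arrest protein p21, under the control antibody was at 16.1 ± 3.8 CPM with vehicle and 8.41 ± 4.65 CPM with CORT (SD, n = 5 each). It was at 4.69 ± 4.69 CPM in the αACBP + Vehicle group and 15.8 ± 14.7 CPM in the αACBP + CORT group (SD, n = 5 each), where 1 liver reached 41 CPM. The log2 fold changes of -0.94 (CORT, isotype) and -1.78 (antibody, vehicle) did not pass the test (standard errors 0.64 and 0.65, edgeR adjusted p = 0.554 and 0.12). The interaction was 2.69 (standard error 0.91, edgeR adjusted p = 0.249).

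Markers of immune cells, which can divide too, moved with CORT under isotype. In edgeR, 1.94% of all genes were called in this comparison and 15.6% had an unadjusted p of 0.05 or less. Of 12 markers of Kupffer cells and macrophages all 12 were lower and 7 were called, with a median log2 fold change of -1.26, and their summed level was between 523 and 1110 CPM in the Isotype + Vehicle group and between 172 and 488 CPM in the Isotype + CORT group. Of 10 common leukocyte markers 3 were called lower (Ptprc, Cd52 and Itgb2, median -1.28), with sums of 133 to 228 CPM and 67.6 to 145 CPM. Of 10 markers of B and plasma cells 8 were lower and 2 higher (Jchain at 0.06 and Mzb1 at 1.21 on the log2 scale, neither called), and 2 were called lower (Ighm and Cd22, median over the 10 of -2.12), with sums of 61.8 to 89.8 CPM and 8.14 to 33 CPM. Of 12 markers of T and NK cells tested 0 were called by edgeR (5 at an unadjusted p of 0.05 or less), all 12 were lower with a median of -1.56, and their sums were 18.4 to 28.7 CPM and 3.61 to 12.5 CPM. With the antibody under CORT, 3 Kupffer cell markers (Clec4f, Csf1r and C1qa) and Ptprc were called higher, beside 0.597% of all genes called. The Kupffer sum was 626 to 911 CPM in the αACBP + CORT group. Of the other cell types, 1 of 10 stellate cell markers (Col3a1) and 1 of 3 neutrophil markers tested (Csf3r) were called lower with CORT under isotype, and 0 of 8 dendritic, 10 sinusoidal endothelial, 7 cholangiocyte and 5 erythroid markers were called by edgeR, with 3, 1, 1 and 0 at that unadjusted p. All 8 dendritic markers were lower (median -1.41), as were 7 of 10 sinusoidal endothelial (median -0.22), 6 of 7 cholangiocyte (median -0.44) and 4 of 5 erythroid markers (median -0.42). None of the 10 hepatocyte markers was called in any comparison by edgeR. At an unadjusted p of 0.05 or less were 0 to 4, beside 7.59% to 20.6% of all genes. The part of immune cells in the levels of the proliferation genes was not tested.

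**Figure D5:**
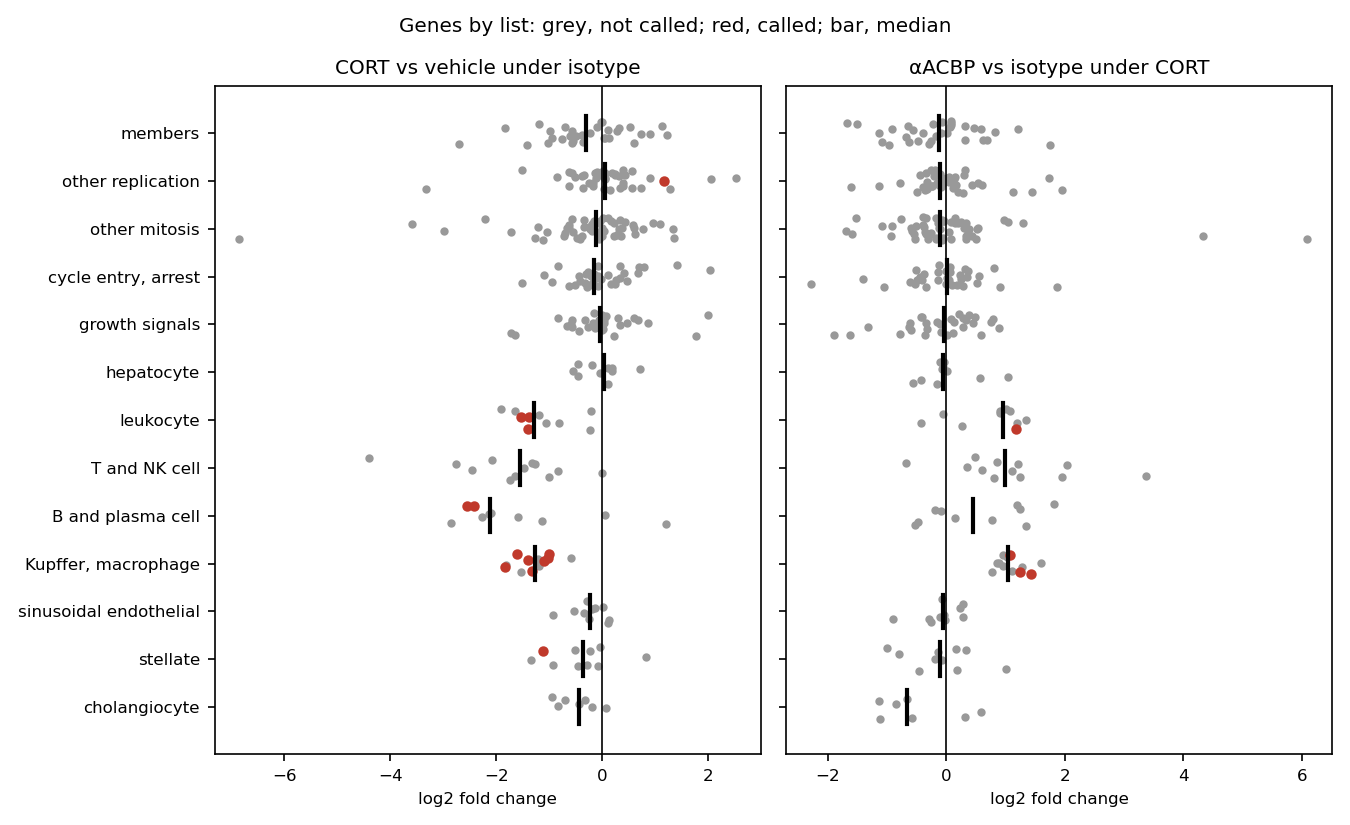
Log2 fold change of the genes tested (points, red if called) by list (rows), with the list's median as a bar, for CORT under isotype on the left and for αACBP under CORT on the right. The dendritic, neutrophil and erythroid markers are not shown. The members have medians of -0.30 and -0.13 and no red point, while the Kupffer cell markers have medians of -1.26 and 1.05 with 7 and 3 called.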

How the data were processed

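Liver RNA of 20 mice was sequenced, 5 in each of 4 groups. The authors aligned read pairs with HISAT2 and counted them on genes with HTSeq, and deposited raw counts, not normalized, in 1 table. The labels name mm10 and the paper's methods a later build, and the table holds no coordinates. The annotation release and strand setting are not given in the sources used here. Lines that name no gene held a median of 61.2% of all counts listed for a liver, these lines included (59.6% to 63.4%), and were left out.

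From the counts, edgeR 4.0.16 (R 4.3.3) was run with TMM normalization, its filter on low counts (16071 of 48440 genes kept) and a robust quasi-likelihood fit of 4 group means without covariates. Calls needed an adjusted p of at most 0.05 and a log2 fold change of 1 or more in size, limits of the same size as the study's. Whether its own p was adjusted is not stated there, and the adjustment was chosen here. The common coefficient of variation between livers was 0.481, and the median of the members' own was 0.878 against 0.329 for all genes. Any pair of livers of a group (40 pairs) had a chi-square of at least 12.4 per degree of freedom, and each counted as 1 replicate.

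The members and lists were chosen with earlier results of these data known, so no list was tested. Described liver by liver were Mki67, Top2a, any called member, and in each role the member with the smallest p with CORT under isotype and with αACBP under CORT. Cdk1, Ccnb1 and Bub1 were added after their values were seen. Of the other lists, called genes, Ccnd1 and Cdkn1a were named. Alternatives were edgeR with size factors of the kind used by DESeq2, the Wald test of DESeq2 1.42.0, and voom of limma 3.58.1 with quality weights. Further ones were other filters, library sizes without the 20 most abundant genes, fits of the compared groups only, an adjusted p alone, a replicate block, and each liver left out. The fit without 3 livers in which over 10% of genes of low level had no count was added after seeing the data. Exon lengths and overlaps were taken from GENCODE M39, in which 91.4% of the table's identifiers and all 34 members were found.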

Additional observations from a re-analysis of the deposited data

Results flagged for a closer look

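In groups of 5 livers, 1 liver stood apart from the others (Dixon's test, limit 0.71) in 8 of 128 groups tested. These were Mki67 at 23.5 CPM and Ccnb2 at 3.18 CPM in αACBP + Vehicle liver 5, and Ccnb2 at 3.42 CPM in Isotype + Vehicle liver 2. In the Isotype + CORT group they were Cdc20 at 6.51 CPM, Foxm1 at 3.9 CPM and Cenpe at 4.8 CPM, all in liver 3, and Kif11 at 0.902 CPM and Tpx2 at 1.42 CPM, both in liver 5. In all 8 cases the liver apart was the highest of its group, and αACBP + Vehicle liver 5 was also the liver with the most genes of low level without a count, at 14.9%.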

How the results depend on the processing

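Other than leaving out single livers, each comparison had 10 alternative settings, and the interaction had 9. The count of 0 called members was the same in all 59 pairs of such a setting and a comparison. With single livers left out it was 0 to 1 with CORT under isotype and 0 to 1 with αACBP under CORT (Cenpe, without Isotype + CORT liver 3), and 0 in the other 4 comparisons. Of the members' medians, 50 moved by less than the SD between livers of 0.461. The other 3 were 0.0366 for αACBP + CORT against Isotype + Vehicle with at least 10 counts in every liver (8 members left), and, with voom, -0.86 for CORT under isotype and 1.20 for the interaction. Of the genes' values, 144 kept their direction and side of the limits and 9 changed sign. Under voom, Mcm5 was at -2.08 with CORT under isotype and at 1.23 with αACBP under CORT, where Mki67 was at 3.42 and Top2a at 1.95. With CORT under isotype voom put Mki67 at -4.06 and Top2a at -3.20, beside -0.57 and -0.76. Without the 3 livers with many genes at 0, Mki67 was at 0.17 with CORT under isotype and Mcm6 at -0.044 with αACBP under CORT. The replicate numbers are from the labels and name different mice, and same-numbered livers did not deviate together (r of -0.14 to 0.14 over 30 pairs, 2 of 20 livers closest to their own number). The replicate block left 0 members called in all 6 comparisons and gave -0.45 for Mcm5 with CORT under isotype, and 0.92 for Mki67 and 0.20 for Top2a with αACBP under CORT. With single livers left out, Mcm5 lay between -0.84 and 0.60 with CORT under isotype, and with αACBP under CORT Mki67 lay between -0.58 and 1.26, Top2a between -0.40 and 0.67 and Mcm6 between -0.19 and 0.38. Mcm10 also lost its call with no filter (edgeR adjusted p = 0.0715) and without the 3 livers (edgeR adjusted p = 0.101). The cause of these shifts was not tested. Fits of only the groups compared do not apply to the interaction. The counts of most members are low, and standard errors near 0.88 limit what could be detected.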
